A study of Mus musculus with 4 samples.

Results

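P4H-TM, encoded by *P4htm*, and the enzymes and factors of the hypoxia-inducible factor (HIF) pathway are the subject here, followed on 4 arrays of mouse cortex taken 24 h after permanent middle cerebral artery occlusion (MCAO). The members were chosen by name as the genes of oxygen sensing: *P4htm*, *Egln1*, *Egln2*, *Egln3*, *Hif1an*, *Hif1a*, *Epas1*, *Arnt* and *Vhl*. These 9 genes of 18194 on the array have 23 of the 34958 probe sets that name 1 gene, and every one of the 23 is reported. Of the 23 probe sets, 17 lay above background on all 4 arrays and 6 on none, and each of the 9 genes had at least 1 of the 17. *P4htm* was about 3-fold lower in *P4htm*-/- than in WT cortex on both sides of the brain, with both of its probe sets, where 0.713% of all detected probe sets differed by 1.5-fold or more on the ipsilateral and 0.685% on the contralateral side. Of the other 15 probe sets above background 0 differed by 1.5-fold between genotypes or between sides, where the shares over all detected probe sets between sides were 1.46% in *P4htm*-/- and 2.93% in WT cortex, so that fewer than 1 of 15 would be past it at the rate of all probe sets.

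The 4 arrays were *P4htm*-/- ipsilateral (KO_i), WT ipsilateral (WT_i), *P4htm*-/- contralateral (KO_c) and WT contralateral (WT_c) cortex of C57BL/6J mice aged 3 months, all with the left artery occluded for 24 h. The contralateral side is the uninjured cortex of the same operated mice, so no group is without surgery. Each array holds pooled RNA of 4 mice, with 1 array per condition and no replicate, so no difference has a replicate check and no p-value was computed. The *P4htm*-/- line is constitutive and backcrossed to C57BL/6 for many generations, and the sources used here do not give the deleted part of the gene.

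Cells sense oxygen through hydroxylases that use it as a substrate. The HIF prolyl 4-hydroxylases modify prolines of the HIF alpha subunits, the von Hippel-Lindau protein then recognizes these and the subunits are degraded, while factor inhibiting HIF hydroxylates an asparagine and so blocks the binding of coactivators. When oxygen is low, the alpha subunits accumulate, pair with the beta subunit ARNT and switch on target genes, among them, in many cells, the genes of their own hydroxylases. Much of this control acts on protein stability and enzyme activity, which an array of transcripts does not measure. P4H-TM is a further prolyl 4-hydroxylase, anchored in the endoplasmic reticulum membrane and abundant in brain.

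The promoters of the HIF prolyl 4-hydroxylase genes are shown because *Egln1* and *Egln3* are known to be hypoxia-inducible in cell lines, which makes them the members where a transcript response to ischemia is most often looked for. Each sequence runs 5′ to 3′ from 250 bases before to 50 bases after a RefSeq gene start in the mouse assembly GRCm38.p6, all 3 on the minus strand, and capitals mark ACGTG or GCGTG, the core of the HIF binding motif, on either strand (CACGT and CACGC when read on the other). *Egln1* lies at chr8:124949205-124949504, *Egln2* at chr7:27166753-27167052, the start with more matches of the 2 listed, and *Egln3* at chr12:54203825-54204124.
Egln1: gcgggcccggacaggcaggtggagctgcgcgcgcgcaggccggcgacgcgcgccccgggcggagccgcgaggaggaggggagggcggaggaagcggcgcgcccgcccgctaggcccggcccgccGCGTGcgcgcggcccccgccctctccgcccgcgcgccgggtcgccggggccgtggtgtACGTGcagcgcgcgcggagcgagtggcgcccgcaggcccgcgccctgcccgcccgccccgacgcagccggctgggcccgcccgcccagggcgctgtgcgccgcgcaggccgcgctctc
Egln2: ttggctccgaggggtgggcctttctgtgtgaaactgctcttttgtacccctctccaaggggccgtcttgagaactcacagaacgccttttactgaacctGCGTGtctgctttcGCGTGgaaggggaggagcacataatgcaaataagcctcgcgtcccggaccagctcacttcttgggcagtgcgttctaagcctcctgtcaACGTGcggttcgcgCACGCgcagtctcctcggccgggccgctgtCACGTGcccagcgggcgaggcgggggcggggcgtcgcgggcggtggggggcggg
Egln3: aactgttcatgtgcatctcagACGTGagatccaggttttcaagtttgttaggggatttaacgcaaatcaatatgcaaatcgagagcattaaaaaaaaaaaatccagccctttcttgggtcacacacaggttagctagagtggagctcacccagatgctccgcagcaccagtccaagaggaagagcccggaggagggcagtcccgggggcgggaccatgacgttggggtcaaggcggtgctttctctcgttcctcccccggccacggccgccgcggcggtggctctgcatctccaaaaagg
The core was found at 2 places for *Egln1*, at 5 for *Egln2*, the last of which reads CACGTG and so matches on both strands, and at 1 for *Egln3*. Of the 9 genes, 8 have a promoter in the RefSeq table, and 5 of the 8 hold the core in at least 1 listed promoter: these 3, *Arnt* and *Hif1a*. *P4htm*, *Hif1an* and *Vhl* have no match in this window. Of all 32851 promoters of this length, 43.8% hold the core, so its presence sets no gene apart, and a match of letters is not a binding site.

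Values are log2 signals made by the authors with RMA, and a difference of 0.585 on this scale is 1.5-fold. A probe set counted as above background on an array where it exceeded 4.79. Over the 4 arrays, 95% of the values of the 81 probe sets of olfactory, vomeronasal and taste receptor genes stayed under this limit. Cortex was taken to lack these receptors. Since the affinity of probes differs, the level of a probe set is compared only with itself on other arrays. As a measure of technical scatter, the differences given by probe sets of the same gene varied with an SD of 0.15 in KO_i minus WT_i, 0.15 in KO_c minus WT_c, 0.13 in KO_i minus KO_c and 0.17 in WT_i minus WT_c, over 15464 probe sets of 5816 genes. This SD does not contain the variation between mice.

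Markers of cortical neurons and reactive astrocytes went with the labels for tissue and injury, while markers of other brain regions were also detected. All 15 measured markers of cortical neurons were above background on every array, and 9 of the 9 detected reactive astrocyte markers were past 1.5-fold higher on the ipsilateral side in both *P4htm*-/- and WT mice. Markers of striatal neurons (6 of 6) and the hypothalamic peptide genes *Avp*, *Oxt*, *Pmch* and *Hcrt* were also above background on all 4 arrays. *Avp* read 8.03 in KO_i, 7.59 in WT_i, 9.34 in KO_c and 7.92 in WT_c. *Pmch* read 7.4 in KO_i, 6.78 in WT_i, 5.64 in KO_c and 6.39 in WT_c. The KO_c array was thus the highest for *Avp* and the lowest for *Pmch*. Choroid plexus markers stood apart between sides. *Ttr*, transthyretin, read 13.62 in KO_i, 14.06 in WT_i, 9.03 in KO_c and 8.71 in WT_c, a difference between sides of 4.59 in *P4htm*-/- and 5.35 in WT cortex. Of the detected choroid plexus markers 4 of 4 were above 0 in *P4htm*-/- and 5 of 5 in WT cortex, with medians of 0.73 and 0.71. Of these, 2 and 3 were past 1.5-fold, where 1.53% and 2.42% of all detected genes were higher. The WT count includes *Aqp1*, which lay near background at 4.88 in WT_i and below it at 3.9 in WT_c. The mean level of the 7 measured markers was 6.27 in KO_i, 6.46 in WT_i, 5.19 in KO_c and 5.07 in WT_c, with *Kcne2* and *Otx2* not above background on any array. The ipsilateral arrays thus stood above the contralateral ones in choroid plexus markers, and the part of these in the other differences between sides was not tested. The array medians lay between 5.53 and 5.55, and 59.2% to 59.8% of probe sets were above background.

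*P4htm*, which encodes P4H-TM, was lower in *P4htm*-/- cortex with both probe sets. The probe set 1459807_x_at read 8.23 in KO_i, 10.02 in WT_i, 8.27 in KO_c and 10.03 in WT_c. The probe set 1428211_at read 7.57 in KO_i, 9.15 in WT_i, 7.57 in KO_c and 9.28 in WT_c. Both *P4htm*-/- arrays therefore lay below both WT arrays, while the sides of 1 genotype lay close together. The differences in KO_i minus WT_i were -1.79 and -1.58 and ranked 1 and 3 from the lowest among 23699 detected probe sets, and those in KO_c minus WT_c were -1.76 and -1.71 and ranked 2 and 3 among 23494. On the linear scale, the *P4htm*-/- signal was 28.9% and 33.4% of the WT signal on the ipsilateral side and 29.5% and 30.6% on the contralateral side. A signal remained in *P4htm*-/- cortex, since the KO_i values lay 3.44 and 2.78 above the background limit and the KO_c values 3.48 and 2.78. The position of the probe sets relative to the deletion is not known here, and the suffix of 1459807_x_at marks probes that may bind other transcripts, so the array does not tell remaining *P4htm* transcript from other sources of signal.

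The level of *P4htm* hardly differed between the injured and the uninjured side. The ipsilateral minus contralateral difference was -0.04 and 0.00 in *P4htm*-/- cortex and -0.01 and -0.13 in WT cortex, each within the SD of probe sets of the same gene. The genotype difference of these differences was -0.03 for 1459807_x_at and 0.13 for 1428211_at.

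**Figure D1:**
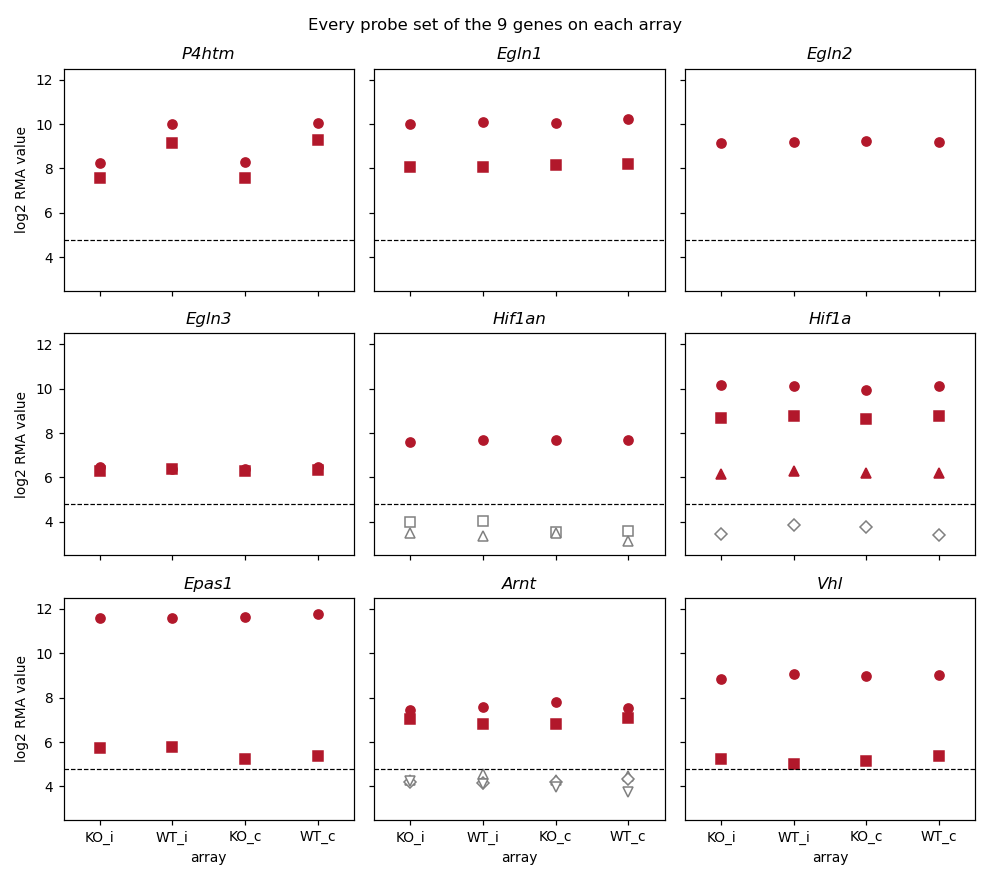
Log2 RMA value (vertical axis) of every probe set of the 9 genes on the KO_i, WT_i, KO_c and WT_c arrays (horizontal axis), 1 pooled array each. Symbols within a panel are different probe sets, filled red where all 4 arrays lie above the dashed background limit of 4.79 and open grey where none does. Of the 9 genes, *P4htm* is the one whose WT arrays stand clearly above its *P4htm*-/- arrays.

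*Egln1*, *Egln2* and *Egln3*, the genes of the 3 HIF prolyl 4-hydroxylases, had nearly level values on the 4 arrays. *Egln1*, whose enzyme HIF-P4H-2 is regarded as the main one acting on HIF1α in normal oxygen, read 10.01 in KO_i, 10.08 in WT_i, 10.07 in KO_c and 10.21 in WT_c with 1423785_at. Its second probe set, 1451110_at, read 8.07, 8.08, 8.16 and 8.19 in the same order of arrays. Both probe sets were lowest in KO_i and highest in WT_c, over a range of 0.20 and 0.12, and neighbouring arrays differed by less than the SD of same-gene probe sets. *Egln2*, which encodes HIF-P4H-1, has a single probe set that read 9.13 in KO_i, 9.20 in WT_i, 9.25 in KO_c and 9.21 in WT_c. *Egln3*, which encodes HIF-P4H-3, read 6.45 in KO_i, 6.40 in WT_i, 6.39 in KO_c and 6.45 in WT_c with 1418648_at, a range of 0.06, the smallest of the 15 probe sets. Its probe set 1418649_at read 6.31, 6.36, 6.28 and 6.35. The genotype differences of these 5 probe sets ran between -0.14 and 0.05, and the differences between sides between -0.13 and 0.06, so that none of the genes whose promoters are shown above differed by more than the scatter at 24 h. On the linear scale the largest of these, *Egln1* with 1423785_at in KO_c minus WT_c, was a ratio of 0.908.

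*Hif1an*, which encodes factor inhibiting HIF, read 7.59 in KO_i and 7.70 in each of WT_i, KO_c and WT_c with 1428576_at. The KO_i array thus lay 0.11 below the other 3, which is within the scatter. Its other probe sets, 1452845_at and 1447817_at, were not above background on any array and give no level.

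*Hif1a*, the gene of HIF1α, did not differ by 1.5-fold with any of its 3 detected probe sets. The probe set 1427418_a_at read 10.18 in KO_i, 10.13 in WT_i, 9.94 in KO_c and 10.14 in WT_c. Only the KO_c array stood apart here, lower by 0.20 than WT_c and by 0.24 than KO_i. This was not seen with 1416035_at, which read 8.66 in KO_i, 8.76 in WT_i, 8.65 in KO_c and 8.75 in WT_c, nor with 1448183_a_at, which read 6.16, 6.30, 6.19 and 6.21. With 1416035_at the sides of each genotype differed by 0.01, and both *P4htm*-/- arrays lay 0.10 below the WT array of the same side. The suffix of the first and last of these probe sets marks probes shared by several transcripts of the gene. A further probe set, 1431981_at, was not above background on any array.

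*Epas1* encodes HIF2α, which in brain is known mostly from endothelial cells and glia, and its probe sets disagreed on the difference between sides. The brighter, 1435436_at, read 11.60 in KO_i, 11.58 in WT_i, 11.64 in KO_c and 11.75 in WT_c. The dimmer, 1449888_at, read 5.74 in KO_i, 5.77 in WT_i, 5.23 in KO_c and 5.36 in WT_c. With the dimmer probe set both ipsilateral arrays lay above both contralateral arrays, by 0.51 in *P4htm*-/- and 0.41 in WT cortex, at the 98.4th and 95th percentile of all detected probe sets, while the brighter gave -0.04 and -0.17. Both differences of the dimmer probe set fell short of 1.5-fold, being 1.42-fold and 1.33-fold. Endothelial markers moved the same way as the dimmer probe set, with a median of 0.24 in each genotype. Of 9 detected markers, 7 were above 0 in *P4htm*-/- and 6 in WT cortex. Over all detected genes, 5553 of 13309 and 5993 of 13320 were above 0, with a median of -0.02 in each. Glial markers were mixed. In *P4htm*-/- and WT cortex, medians were 0.02 and -0.04 for astrocytes, 0.19 and 0.19 for microglia, and -0.10 and -0.15 for oligodendrocytes. The mean level of the endothelial markers was 7.22 in KO_i, 7.33 in WT_i, 7.07 in KO_c and 7.19 in WT_c over 10 measured genes. Of these, *Tie1* was not above background on any array. The part of these cell types in the *Epas1* result was not tested. In bulk tissue fewer cells of a type and less RNA per cell cannot be told apart. Between genotypes, the *Epas1* probe sets differed by 0.02 and -0.03 on the ipsilateral and by -0.11 and -0.13 on the contralateral side.

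*Arnt*, the gene of the beta subunit that pairs with either alpha subunit, had 2 detected probe sets of 5, and they went opposite ways. The probe set 1437042_at read 7.44 in KO_i, 7.57 in WT_i, 7.80 in KO_c and 7.54 in WT_c. The probe set 1419996_s_at read 7.03 in KO_i, 6.80 in WT_i, 6.82 in KO_c and 7.10 in WT_c. The KO_c array was thus the highest of the 4 with the first and, by a margin of 0.02, next to the lowest with the second. In KO_i minus KO_c they gave -0.36 and 0.21, and in KO_c minus WT_c 0.26 and -0.28. No single direction for *Arnt* can be taken from these values, and the remaining probe sets, 1425064_at, 1421721_a_at and 1449696_at, were not above background on any array.

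*Vhl*, the gene of the von Hippel-Lindau protein, likewise had 2 probe sets that differed in sign. The probe set 1434708_at read 8.83 in KO_i, 9.06 in WT_i, 8.97 in KO_c and 9.02 in WT_c. The probe set 1421071_at, which lies near background, read 5.22 in KO_i, 5.0 in WT_i, 5.16 in KO_c and 5.36 in WT_c. In KO_i minus WT_i the first gave -0.23 and the second 0.22, so the array with the lowest value was KO_i in the first case and WT_i in the second. On the contralateral side the differences between genotypes were -0.05 and -0.20.

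Counted together, 2 of the 17 detected member probe sets were past 1.5-fold in KO_i minus WT_i and the same 2, those of *P4htm*, in KO_c minus WT_c, where 0.713% and 0.685% of all detected probe sets were past it in either direction, and 0.498% and 0.323% were past it on the lower side, as *P4htm* was. In KO_i minus KO_c and in WT_i minus WT_c 0 of 17 were past it, where the shares over all detected probe sets were 1.46% and 2.93%. At each of these shares fewer than 1 of 15 probe sets would be past it, so the count of 0 does not set the members apart. Leaving out *P4htm*, the differences ran from -0.23 to 0.23 in KO_i minus WT_i, from -0.28 to 0.26 in KO_c minus WT_c, from -0.36 to 0.51 in KO_i minus KO_c and from -0.36 to 0.41 in WT_i minus WT_c. Of these 15 probe sets 12, 11, 10 and 12 lay within the SD of same-gene probe sets in the 4 comparisons, against 56.6%, 72.2%, 62.8% and 58.8% of all detected probe sets. In KO_c minus WT_c 12 of the 15 were below 0 and 2 above, with a median of -0.07, against a median of -0.01 over all detected probe sets, and in KO_i minus WT_i 10 were below and 5 above, with medians of -0.05 and 0.01. Whether these medians differ from that of all probe sets was not tested. Of the 60 differences, 2 lay outside the central 95% of all detected probe sets, *Epas1* 1449888_at and *Arnt* 1437042_at, both in KO_i minus KO_c.

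**Figure D2:**
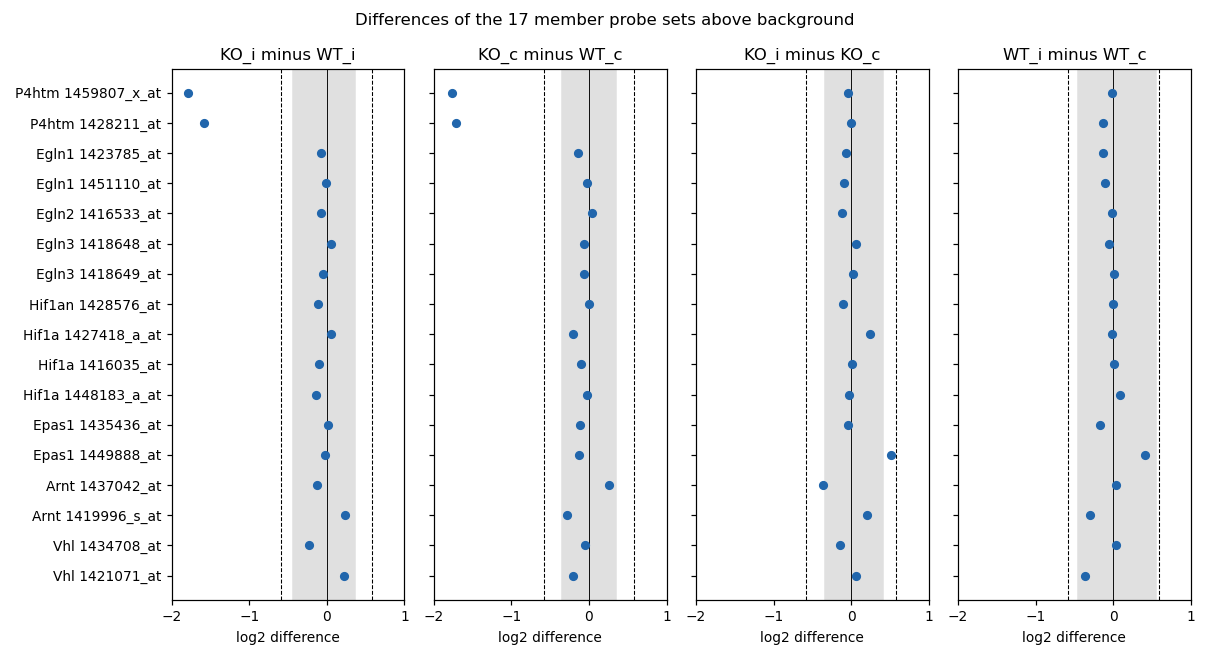
Log2 difference (horizontal axis) of the 17 detected probe sets of the 9 genes (rows) in the 4 comparisons (panels), from 1 pooled array per condition. Grey bands hold the central 95% of all detected probe sets and dashed lines mark 1.5-fold. The *P4htm* probe sets lie between -1.79 and -1.58 in the genotype comparisons, and all other points lie inside the dashed lines.

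The other genes of the pathway were taken from a list of HIF partners, ligase subunits, stability factors and coactivators, of which 18 of 20 were measured. In both genotype comparisons 0 of 18 detected genes were past 1.5-fold, where 0.666% of all detected genes were past it in KO_i minus WT_i and 0.386% in KO_c minus WT_c. The list medians were 0.095 and 0.030, against -0.01 for all detected genes in each. The coactivators *Crebbp* and *Ep300*, histone acetyltransferases that HIF recruits, gave 0.29 and 0.26 in KO_i minus WT_i, and 0.32 and 0.06 in KO_c minus WT_c. Cortical neuron markers were above 0 for 15 of 15 genes in KO_i minus WT_i, with a median of 0.18. In KO_c minus WT_c 5 of 15 were above 0 and 9 below, with a median of -0.02. Over all detected genes, 6270 of 13363 and 5698 of 13207 were above 0 in these comparisons. The part of the neuron markers in the list's values was not tested. *Elob*, *Eloc*, *Cul2* and *Rbx1*, the partners of the von Hippel-Lindau protein in its ubiquitin ligase, gave -0.24, -0.30, -0.14 and 0.22 in KO_i minus WT_i.

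Between sides, 0 of 17 genes of that list were past 1.5-fold in *P4htm*-/- cortex, against 1.7% of all detected genes, and 1 of 18 was in WT cortex, against 2.86%, of which 0.443% were lower. The 1 gene was *Cited4*, whose protein competes with HIF1α for coactivators, which read 6.19 in KO_i, 5.85 in WT_i, 6.30 in KO_c and 6.54 in WT_c. WT_i was the lowest of its 4 arrays, at -0.69 in WT_i minus WT_c and -0.11 in KO_i minus KO_c. *Arnt2*, the ARNT relative typical of neurons, read 11.08, 10.92, 11.08 and 11.07 in the same order, and *Hif3a*, a further alpha subunit, 6.55, 6.68, 6.79 and 6.65. The list medians between sides were -0.05 in *P4htm*-/- and -0.105 in WT cortex, against -0.02 for all detected genes in each.

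Other hydroxylases that use 2-oxoglutarate and oxygen, the enzyme class of P4H-TM, were taken from a further list. All 17 genes of that list were measured and 16 were detected, with 0 past 1.5-fold in any of the 4 comparisons. The shares over all detected genes were 0.666% in KO_i minus WT_i, 0.386% in KO_c minus WT_c, 1.7% in KO_i minus KO_c and 2.86% in WT_i minus WT_c, at which fewer than 1 of 16 would be past it. The collagen prolyl 4-hydroxylase subunits *P4ha1* and *P4ha2*, which act in collagen synthesis, gave 0.04 and 0.01 in KO_i minus WT_i and -0.13 and 0.25 in KO_c minus WT_c, and *P4ha3* was not above background on any array. The largest difference was that of the lysyl hydroxylase *Plod1* in WT_i minus WT_c, 0.41, against 0.27 in KO_i minus KO_c. The list medians were -0.05 in KO_i minus WT_i, 0.005 in KO_c minus WT_c, -0.05 in KO_i minus KO_c and -0.01 in WT_i minus WT_c.

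Transcripts that HIF can induce were higher on the ipsilateral side for a few genes only. Of 34 listed target genes 32 were measured and 30 detected, and 3 were past 1.5-fold higher in *P4htm*-/- and 4 in WT cortex, with 0 lower, where 1.53% and 2.42% of all detected genes were higher. The list medians were 0.07 and 0.02, against -0.02 for all detected genes in each. *Hmox1*, heme oxygenase 1, read 7.33 in KO_i, 7.47 in WT_i, 5.91 in KO_c and 5.48 in WT_c, a difference between sides of 1.42 in *P4htm*-/- and 1.99 in WT cortex. *Plin2*, a lipid droplet protein, read 8.09, 8.27, 7.18 and 7.22 on the same arrays, differences of 0.91 and 1.05, so both ipsilateral arrays lay above both contralateral arrays for these genes. Markers of monocytes and macrophages, cells that also express both, were above 0 on the same side for 5 of 5 detected genes, of which 3 were past 1.5-fold in *P4htm*-/- and 5 in WT cortex, with medians of 1.07 in *P4htm*-/- and 1.26 in WT cortex. The mean level of the 6 measured markers was 6.96 in KO_i, 7.07 in WT_i, 5.77 in KO_c and 5.80 in WT_c, with *Ccr2* not above background on any array, and their part in the result was not tested.

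By their brightest probe sets, the remaining 3 target genes passed 1.5-fold between sides in 1 genotype each. *Hk2*, hexokinase 2 of glycolysis, read 6.46 in KO_i, 6.70 in WT_i, 5.99 in KO_c and 6.04 in WT_c, a difference between sides of 0.47 in *P4htm*-/- and 0.66 in WT cortex. *Pmaip1*, a BCL2 family gene that promotes cell death, read 6.50 in KO_i, 6.03 in WT_i, 5.86 in KO_c and 6.02 in WT_c, so that KO_i alone was high and the differences were 0.64 and 0.01. *Adm* encodes adrenomedullin, a vasodilator peptide, and its probe sets disagreed. The probe set 1447839_x_at, whose suffix marks probes that may bind other transcripts, read 5.92 in KO_i, 6.12 in WT_i, 5.63 in KO_c and 5.02 in WT_c. The difference between sides was 0.29 and 1.10, with the WT_c value near the background limit of 4.79. The probe set 1416077_at read 5.54 in KO_i, 5.54 in WT_i, 4.84 in KO_c and 5.06 in WT_c, which gave 0.70 and 0.48. Its contralateral values also lay near that limit. *Adm* was thus past 1.5-fold in WT cortex with the first probe set and in *P4htm*-/- cortex with the second. With the first of these *Adm* was also the 1 target gene past 1.5-fold between genotypes, at 0.61 in KO_c minus WT_c, where 0.227% of all detected genes were higher and the second probe set gave -0.22. Whether these genotype differences are larger than the variation between pools could not be tested with 1 array each. Glucose uptake and glycolysis genes were above 0 for 12 of 12 genes in KO_i minus KO_c and 7 of 12 in WT_i minus WT_c. Their medians were 0.085 and 0.025. Over all detected genes, 5553 of 13309 and 5993 of 13320 were above 0, with a median of -0.02 in each. The SD of same-gene probe sets, 0.13 and 0.17, describes single probe sets and not a median of 12 genes. Whether the medians of the 12 genes differ from those of all genes was not tested. The difference between genotypes was not tested. *Vegfa*, the vascular growth factor, read 7.75 in KO_i, 7.93 in WT_i, 7.82 in KO_c and 7.80 in WT_c, and *Slc2a1*, the glucose transporter of the blood brain barrier, 11.46, 11.26, 11.40 and 11.22. In KO_i minus WT_i 0 of 30 targets were past 1.5-fold, where at the 0.666% of all detected genes fewer than 1 would be, with a median of 0.03.

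**Figure D3:**
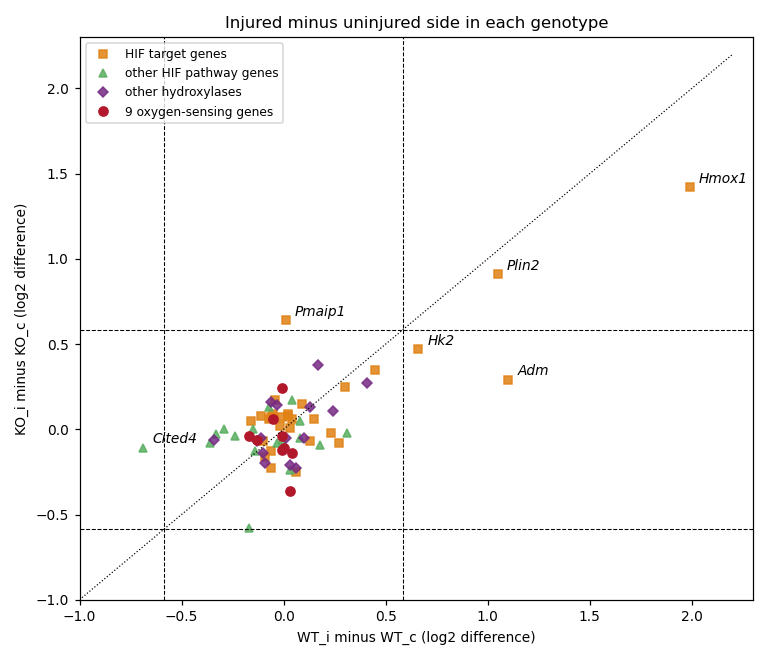
Ipsilateral minus contralateral log2 difference for *P4htm*-/- (vertical axis) against WT mice (horizontal axis), for the 9 genes and for the genes of the 3 lists above background on all arrays, each by its brightest probe set, 1 pooled array per condition. Dashed lines mark 1.5-fold and the dotted line equal differences. The 9 genes lie inside the dashed lines, with *Arnt* at -0.36 in *P4htm*-/- cortex. *Hmox1* is farthest from 0, at 1.42 in *P4htm*-/- and 1.99 in WT cortex.

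Genes with a pattern like that of *P4htm* over the 4 arrays were sought as those with the smallest Euclidean distance between centred log2 values, among 12823 detected genes other than the 9. The nearest was *Spink8*, a serine protease inhibitor gene, at a distance of 0.77, which read 5.49 in KO_i, 6.51 in WT_i, 5.23 in KO_c and 6.31 in WT_c. Next came *Ppm1m* at 1.09, *Gm2115* at 1.19, *Abhd14b* at 1.26 and *Abhd14a* at 1.28. All 5 had both *P4htm*-/- arrays below both WT arrays, with smaller differences than *P4htm*. This direction follows from choosing the 5 genes by their likeness to *P4htm* on the same arrays, so it is a description only. In KO_i minus WT_i and KO_c minus WT_c, *Spink8* gave -1.02 and -1.08 and *Ppm1m* -0.63 and -0.74, all past 1.5-fold. *Gm2115* gave -0.52 and -0.66, *Abhd14b* -0.71 and -0.35, and *Abhd14a* -0.58 and -0.42. Of these, *Gm2115* was past 1.5-fold in KO_c minus WT_c only, *Abhd14b* in KO_i minus WT_i only, and *Abhd14a* in neither. In the RefSeq gene order 4 of the 5, *Gm2115* being the exception, lie on chromosome 9 with *P4htm*, separated from it by 45 to 115 genes, where 5.76% of the 12795 genes with a known chromosome lie on it. The neighbours of *P4htm* in that order are *Wdr6* and *Arih2*. *Wdr6* read 11.51 in KO_i, 11.61 in WT_i, 11.57 in KO_c and 11.98 in WT_c, and its second probe set gave -0.14 and -0.36 in the genotype comparisons where this gave -0.10 and -0.41. *Arih2* gave 0.11 and 0.05 with its brightest probe set and between -0.58 and 0.17 with the other 4. None of the genotype differences of *Wdr6* and *Arih2* was past 1.5-fold. Of the other 4 *Arih2* probe sets, 1 near background gave -0.81 in WT_i minus WT_c and -0.06 in KO_i minus KO_c.

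**Figure D4:**
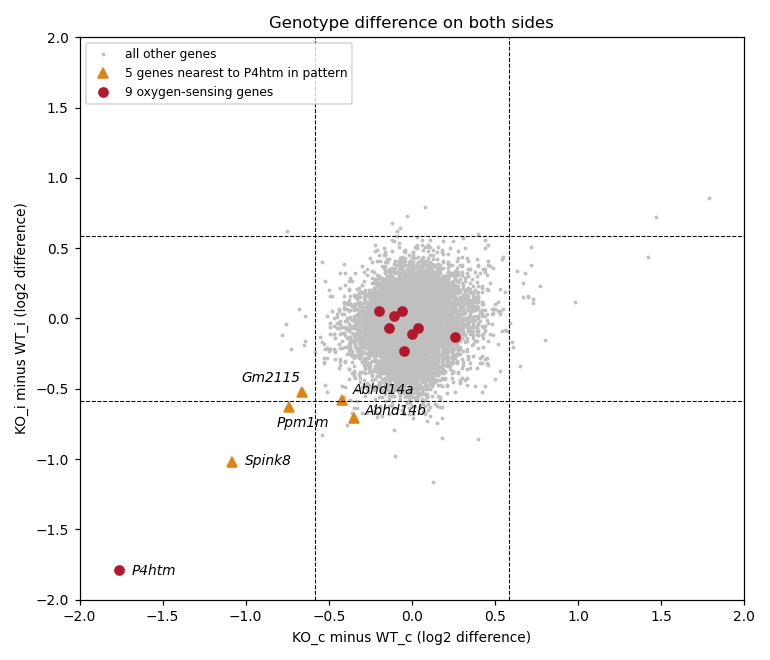
Log2 difference between *P4htm*-/- and WT cortex on the contralateral (horizontal axis) and ipsilateral side (vertical axis) for all genes above background on all arrays, in grey, from 1 pooled array per condition. The 9 genes are red circles and the 5 genes nearest to *P4htm* in pattern orange triangles, and dashed lines mark 1.5-fold. *P4htm* sits at -1.76 and -1.79, away from the other 8 genes, which lie within the grey cloud.

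Of the other members, *Arnt* had the widest range over the arrays with its brightest probe set, 0.36. The genes nearest to it were *Metap1d*, *Cbs*, *Bloc1s3*, *Cyp26b1* and *Thada*, at distances of 0.02 to 0.04. Many genes vary this little, and such small distances go with a narrow range over 4 arrays and is given as a description only.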

How the data were processed

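Biotin-labelled RNA of 4 pooled mice per condition was hybridized to Affymetrix mouse whole-genome expression arrays. The values deposited by the authors are log2 signals, 1 per probe set. The submitters' processing notes name RMA, the methods name GenePattern for normalization, and no source used here states a version. RMA corrects background, forces the arrays to share 1 distribution and condenses probes into probe sets, which hides any shift common to a whole array. Base 2 was inferred, since the values span 2.51 to 14.9. The annotation gave 1 gene for 34958 of 45101 probe sets; the 932 with several genes and the 9211 without a name were not used. Symbols of 34754 were looked up in a RefSeq table for GRCm38.p6 by Entrez ID, used only for names, gene order and promoter sequences.

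Differences were taken as *P4htm*-/- minus WT and ipsilateral minus contralateral. A probe set was past 1.5-fold when its values differed by at least 0.585 and at least 1 array of the pair lay above background. For gene lists, a gene was its probe set with the highest mean. The 9 members and the lists, written from general knowledge, were chosen with earlier results of these data known. Named genes were all members, list genes past 1.5-fold, the neighbours of *P4htm* and the 5 genes nearest in pattern to *P4htm* and to *Arnt*; *Crebbp*, *Ep300*, the ligase subunits, *Arnt2*, *Hif3a*, the collagen hydroxylases, *Plod1*, *Vegfa* and *Slc2a1* were named outside this rule, after their values were seen. Alternatives were no detection filter, a higher background limit, 2-fold, median centring, cyclic loess and the mean of probe sets. Precision is limited by having 1 array per condition. The counting and distance steps were tested on simulated data. Python 3.11.15, numpy 2.4.6, pandas 2.3.3, matplotlib 3.10.9, R 4.3.3 and limma 3.58.1 were used.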

Additional observations from a re-analysis of the deposited data

Results flagged for a closer look

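In 2 member probe sets the difference had opposite signs in the groups compared, each larger than the SD of same-gene probe sets. With *Arnt* 1419996_s_at the ipsilateral minus contralateral difference was 0.21 in *P4htm*-/- and -0.30 in WT cortex, which gives a genotype difference of 0.51. With *Vhl* 1421071_at the *P4htm*-/- minus WT difference was 0.22 on the ipsilateral and -0.20 on the contralateral side, which gives 0.42. The brighter probe sets of these genes gave -0.39 and -0.18 for the same quantity. These differences were not tested, since each condition has 1 array.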

How the results depend on the processing

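No paired analysis was possible because each condition has 1 array. The number of member probe sets past 1.5-fold was the same in all 4 comparisons without a detection filter, at 2-fold, after median centring and after cyclic loess. It was also the same with the background limit at the 99th percentile of the values of the receptor probe sets (6.59). Median centring moved the 92 differences of the 23 member probe sets by at most 0.02 and cyclic loess by at most 0.05, and 3 of the 92, all of size 0.01 or less, changed sign under cyclic loess. The cyclic loess and median centring settings moved no list median by more than the SD of same-gene probe sets. With the mean of all probe sets of a gene, list medians that moved by more than this were those of *Hif3a* and *Arnt2* (0.007 in KO_i minus KO_c and 0.127 in WT_i minus WT_c), collagen prolyl 4-hydroxylases (0.07 in KO_c minus WT_c), vascular and secreted HIF targets (-0.065 in WT_i minus WT_c), reactive astrocytes (1.32 in KO_i minus KO_c and 1.42 in WT_i minus WT_c) and choroid plexus (0.184 in KO_c minus WT_c and 0.44 in KO_i minus KO_c). Without a detection filter they were reactive astrocytes (1.89 in WT_i minus WT_c), monocytes and macrophages (0.825 in KO_i minus KO_c), neutrophils (0.325 in KO_c minus WT_c, 0.145 in KO_i minus KO_c and 0.20 in WT_i minus WT_c), choroid plexus (0.60 in KO_i minus KO_c) and red blood cells (0.32 in KO_c minus WT_c). Dropping the filter brings in genes not above background and so changes the genes counted. For the mean of probe sets the cause was not tested. Low signal limits the dimmer probe sets: at the limit of 6.59, 12 of the 23 member probe sets and 8 of the 9 genes were still above background, and both *Egln3* probe sets, *Hif1a* 1448183_a_at, *Epas1* 1449888_at and *Vhl* 1421071_at were not, so *Egln3* then had no detected probe set.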
